A study of Mus musculus with 30 samples.

Results

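Transcripts of 34 genes of hepatic lipogenesis, including the transcription factors ChREBP (Mlxipl), SREBP1 (Srebf1), and LXRα (Nr1h3) that control many of the others, were followed gene by gene through the 6 groups of a mouse liver RNA-seq experiment. The genes were taken by symbol, and each of the 34 matched 1 of the 55335 genes in the count table. By role, 3 are control factors, 8 serve fatty acid synthesis, 7 desaturate or elongate fatty acids, 8 build glycerolipids, 4 belong to the lipid droplet and lipolysis, and 4 bring sugar into the pathway.

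Livers came from male mice aged 7 to 10 weeks, with 5 mice in each group and 1 mRNA library per mouse. Wild-type mice, C151S mice, and Nrf2-knockout mice each received 1 oral dose of vehicle (DMSO at 10%, Cremophor-EL, and PBS) or of CDDO-Me at 30 µmol/kg, and tissue was taken after 24 hours. CDDO-Me is a synthetic triterpenoid that reacts with cysteines of KEAP1, the repressor of the stress-response factor NRF2. C151S mice carry a germline Keap1 knock-in that puts serine in place of the sensor cysteine for which the line is named, and Nrf2-knockout mice carry a germline disruption of Nfe2l2, the gene of NRF2. All mice were of an albino C57BL/6J background. The wild-type mice were purchased from a commercial breeder, whereas both mutant lines were kept by homozygous matings, so that genotype and colony cannot be told apart in any comparison of mutant with wild-type mice.

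De novo lipogenesis turns citrate exported from mitochondria into acetyl-CoA, malonyl-CoA, and palmitate, which is then elongated, desaturated, and esterified to triglyceride. In liver, ChREBP responds to metabolites of glucose and, as a dimer with MLX, binds paired E boxes called carbohydrate response elements (ChoREs). SREBP1 responds to insulin and to LXRα and binds sterol response elements (SREs), and many enzyme genes of the pathway are targets of both factors.

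Upstream sequence of 3 of the genes is given as an example of the letters that these factors are known for. RefSeq promoters (GRCm38.p6) were matched for 28 of the 34 genes, and the 250 bases before each start site were searched on both strands. An E box (CACGTG) was present in 6.02% of all 32851 promoters, in 6.86% of all genes with a promoter, and in 9.84% of the genes tested in wild-type mice, and of the 28 genes it was upstream of 5, Mlxipl, Elovl5, Khk, Lpin2, and Slc25a1. ChoRE letters, taken as CACGNG and CNCGTG with 5 bases between them so that each end resembles an E box, were found in 0.0396% of promoters and, among the 28 genes, upstream of Pklr alone, and 2 full E boxes at the same distance in none of the 32851. The SRE letters TCACCCCAC were found in 0.496% of promoters and in none of the 28, the looser TCACNCCAC, which includes them, in 1.05% and at a downstream start site of Mlxipl. An LXR element (AGGTCA repeated after 4 bases) was found in 0.0152% and none of the 28, and the NRF2 element core TGACNNNGC in 10.2% and upstream of Acss2 alone. Sequences run 5′ to 3′ on the plus strand and end at the base before the start site, with matches to the E box, ChoRE, or SRE letters in capitals.
Mlxipl, upstream start site, chr5:135089640-135089889, E box at -98 to -93: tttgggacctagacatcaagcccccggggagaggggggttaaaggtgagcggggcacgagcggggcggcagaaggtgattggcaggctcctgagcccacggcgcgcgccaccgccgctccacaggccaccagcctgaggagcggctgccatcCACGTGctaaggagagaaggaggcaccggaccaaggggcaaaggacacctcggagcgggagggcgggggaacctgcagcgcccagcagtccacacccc
Mlxipl, downstream start site, chr5:135106641-135106890, looser SRE letters at -136 to -128: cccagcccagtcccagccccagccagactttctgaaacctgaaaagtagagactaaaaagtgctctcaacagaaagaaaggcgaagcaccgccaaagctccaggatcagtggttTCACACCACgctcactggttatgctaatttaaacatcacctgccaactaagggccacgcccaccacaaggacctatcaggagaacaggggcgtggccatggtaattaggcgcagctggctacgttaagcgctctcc
Elovl5, chr9:77917115-77917364, E box at -161 to -156: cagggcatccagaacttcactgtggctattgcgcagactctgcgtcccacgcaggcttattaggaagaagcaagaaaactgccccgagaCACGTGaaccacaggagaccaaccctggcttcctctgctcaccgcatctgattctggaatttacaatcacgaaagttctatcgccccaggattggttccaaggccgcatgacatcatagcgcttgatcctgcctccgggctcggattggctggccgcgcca
Pklr, downstream start site, chr3:89136373-89136622, ChoRE letters at -170 to -154: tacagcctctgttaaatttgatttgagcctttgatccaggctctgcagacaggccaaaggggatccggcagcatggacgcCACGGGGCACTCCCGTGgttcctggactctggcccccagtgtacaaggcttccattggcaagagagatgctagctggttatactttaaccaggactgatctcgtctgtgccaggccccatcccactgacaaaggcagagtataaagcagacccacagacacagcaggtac
A match is a description of the letters in these windows, and binding was not measured. Of the 5 genes with an E box, the 2 shown are those called lower with CDDO-Me in wild-type mice, as given below. Khk, Lpin2, and Slc25a1 were not called there and are not shown. A link between the letters and the change was not tested.

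The gene counts of a library summed to 33229925 at the median and ranged from 23667068 to 42073169. Levels are given as CPM (counts scaled to library size with TMM factors), means with the SD over 5 mice. A gene was called in a comparison of 2 groups at an adjusted p (Benjamini-Hochberg, over all genes tested) under 0.05 in edgeR's quasi-likelihood test and a log2 fold change of at least 0.5 in size. The Nrf2-knockout labels were checked with Nfe2l2, which ranged from 22.4 to 39.8 CPM in Nrf2-knockout libraries and from 42.0 to 84.9 CPM in all others, without overlap. This check does not cover the C151S labels or the treatment labels. The clock gene Arntl parted the libraries into a set of 19 with 2.52 to 4.79 log2 CPM and a set of 11 with -1.15 to 0.90 log2 CPM. The low set held 5 of 10 C151S and 6 of 10 Nrf2-knockout libraries and no wild-type library, so results on the mutants are also given with this split below. In whole-liver RNA, fewer cells of a type and less RNA per cell cannot be told apart.

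The genes covered a wide range of levels in vehicle-treated wild-type liver. Scd1, the main hepatic stearoyl-CoA desaturase, had the highest level per kilobase of exon, at 2164 CPM per kb. Khk (ketohexokinase, 189.8 CPM per kb), Thrsp (177 CPM per kb), and the desaturase gene Fads2 (163 CPM per kb) followed. Mlxipl stood at 77.5 CPM per kb, Srebf1 at 33.2 CPM per kb, and Fasn at 49.5 CPM per kb. At the low end, Pnpla3 (0.786 CPM per kb), Cidec (0.482 CPM per kb), Mogat1 (0.203 CPM per kb), and Cidea (0.0276 CPM per kb) rested on few counts. Cidea and Mogat1 failed the filter on low counts in every pairwise comparison, Pnpla3 failed it in 1, and the other 31 passed in all, so that 32 of the 34 were tested in most comparisons.

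CDDO-Me lowered a share of the lipogenic transcripts in wild-type liver. Of the 32 genes tested, 7 fell, namely Mlxipl, Thrsp, Mid1ip1, Scd1, Elovl2, Elovl5, and Pnpla3, and none rose, whereas 2.75% of all genes tested were called, 1.1% lower and 1.66% higher. The genes were chosen with earlier results of these data known. The shares over all genes are therefore given for description and are no independent test. The median log2 fold change of the 32 genes was -0.35, against -0.01 for all genes, and 28 of the 32 had a negative value. At an unadjusted p under 0.05 there were 16 of the 32, all lower, where 17% of all genes tested passed in either direction. For 6 of the genes the 5 treated mice lay wholly below the 5 vehicle-treated mice, compared with 2.12% of all genes tested. The summed level of 7 hepatocyte markers was also lower at the median with CDDO-Me, at 87210 CPM (81270 to 103100) against 106900 CPM (98000 to 116600) with vehicle, and its part in the result was not tested. The sum is of unscaled CPM, so the most abundant markers weigh most in it. The response is plotted per mouse for the 7 genes called.

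**Figure D1:**
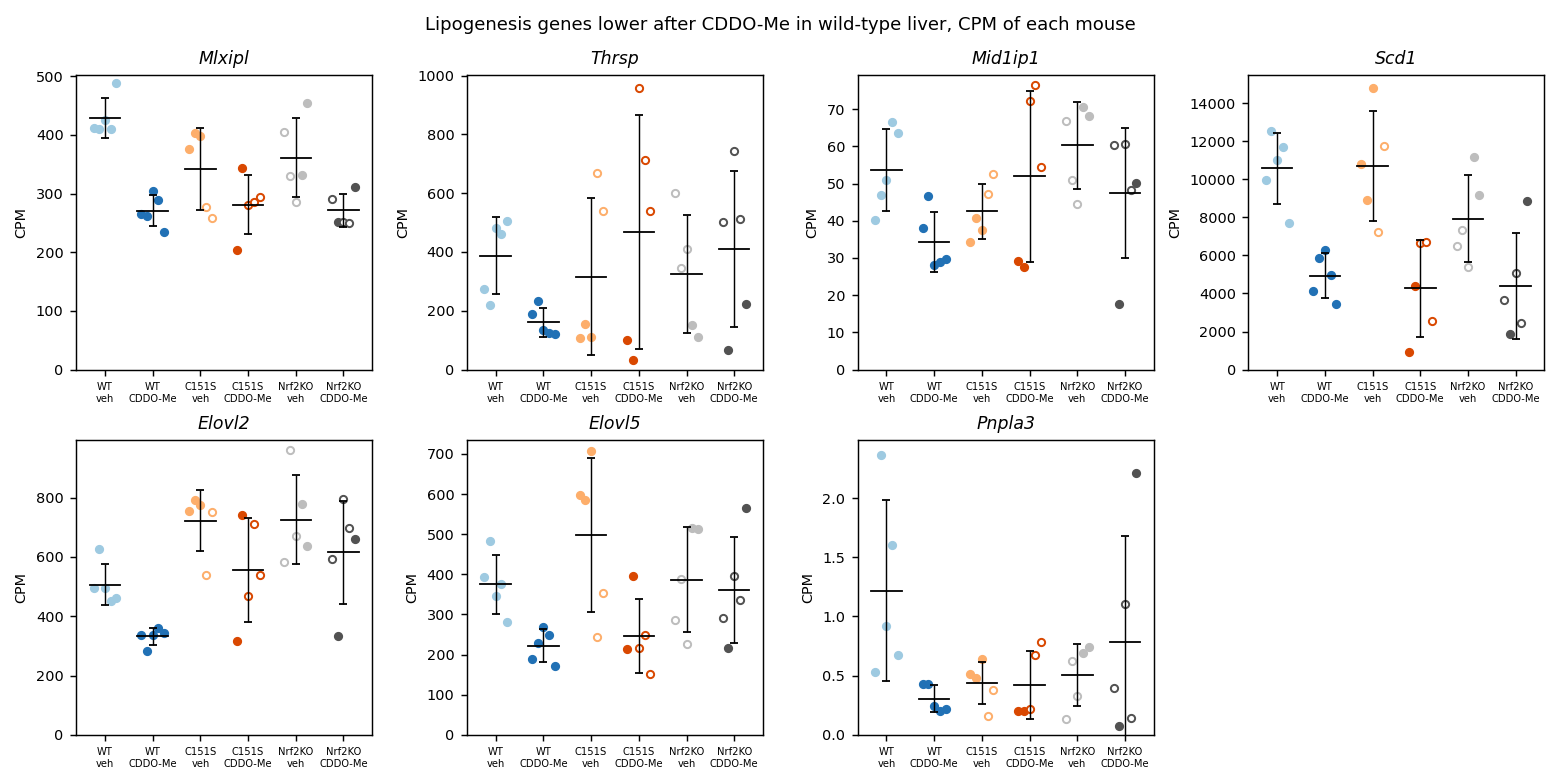
Levels (CPM, linear axes from 0) of the 7 genes called in the comparison of CDDO-Me with vehicle in wild-type liver, shown for all 6 groups. Each point is 1 mouse (5 per group), open points are libraries of the low-Arntl set, the black bar is the mean, and the error bar is 1 SD. The wild-type treated mice sit wholly below the wild-type vehicle mice for Mlxipl, Scd1, Elovl2, Elovl5, and Pnpla3, while Thrsp and Mid1ip1 overlap. The SD of Pnpla3 in treated Nrf2-knockout mice reaches below 0 and is cut off there.

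Of the control factors, Mlxipl fell and neither Srebf1 nor Nr1h3 was called. Mlxipl (ENSMUSG00000005373.13, chromosome 5, 135089890 to 135138382) had 412, 411, 425, 411, and 489 CPM in the 5 vehicle-treated wild-type mice and 266, 262, 304, 288, and 235 CPM in the 5 treated mice. Every treated mouse was below every vehicle-treated mouse, and a single vehicle-treated mouse stood above the other 4. The change was 1.59-fold (log2 fold change -0.67, SE 0.082, adjusted p = 0.000535 in edgeR's quasi-likelihood test). It was called in each of the 6 alternative analyses and without each of the 10 mice, with log2 fold changes of -0.71 to -0.62 when a mouse was left out. Srebf1, from which SREBP1 is made, had 187 ± 44.9 CPM with vehicle and 146 ± 39.3 CPM with CDDO-Me (log2 fold change -0.37, adjusted p = 0.373 in edgeR's quasi-likelihood test). For Nr1h3 these were 92.7 ± 8.76 and 86.3 ± 7.25 CPM (log2 fold change -0.11, adjusted p = 0.561 in the same test).

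In fatty acid synthesis, 2 of 8 genes were called, Thrsp and Mid1ip1, which encode the paired spot 14 and spot 14-like proteins and no enzyme of the chain. Thrsp (ENSMUSG00000035686.8, chromosome 7, 97412938 to 97417730), a thyroid hormone- and carbohydrate-responsive gene of lipogenic tissue, had 273, 220.4, 481, 461, and 504 CPM with vehicle and 191, 234, 133, 125, and 122 CPM with CDDO-Me. Vehicle replicate 2 lay just below treated replicate 2 and the groups were otherwise apart, with vehicle replicates 3, 4, and 5 well above all treated mice. The log2 fold change was -1.27, or 2.42-fold (SE 0.25, adjusted p = 0.0124 in edgeR's quasi-likelihood test). Mid1ip1 (ENSMUSG00000008035.12, chromosome X, 10715013 to 10719690), whose product binds acetyl-CoA carboxylase, had 40.3, 47.0, 51.0, 66.5, and 63.6 CPM with vehicle and 38.2, 46.7, 28.2, 28.8, and 29.8 CPM with CDDO-Me. Here too the groups overlapped, since treated replicate 2 lay above vehicle replicate 1. The log2 fold change was -0.65 (SE 0.16, adjusted p = 0.0442 in edgeR's quasi-likelihood test). The call of Mid1ip1 was lost when any of 7 mice was left out (vehicle replicates 3, 4, and 5 and treated replicates 1, 3, 4, and 5), with adjusted p between 0.0665 and 0.116 in edgeR.

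The enzymes of fatty acid synthesis were not called. Fasn, fatty acid synthase, had 541 ± 104 CPM with vehicle and 335 ± 96.0 CPM with CDDO-Me, and was just outside the threshold (log2 fold change -0.70, adjusted p = 0.0527 in edgeR's quasi-likelihood test). For Acacb, the mitochondria-bound acetyl-CoA carboxylase, the log2 fold change was -0.88 (adjusted p = 0.0796 in edgeR). Acly, which cleaves citrate to acetyl-CoA, had -0.47 (adjusted p = 0.0996 in edgeR). The 3 other genes of the group lay close to 0, with log2 fold changes of -0.15 for Acaca, the cytosolic carboxylase, 0.14 for the citrate carrier Slc25a1, and 0.16 for Acss2, which makes acetyl-CoA from acetate.

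Desaturation and elongation held 3 of the 7 calls. Scd1 (ENSMUSG00000037071.3, chromosome 19, 44394455 to 44407879), which introduces the first double bond into stearate and palmitate, had 9989, 12520, 11030, 11700, and 7681 CPM with vehicle and 4150, 5861, 6273, 4953, and 3447 CPM with CDDO-Me. All treated mice were below all vehicle-treated mice. The change was 2.16-fold (log2 fold change -1.11, SE 0.18, adjusted p = 0.00356 in edgeR's quasi-likelihood test). Its close relative Scd2, expressed at 6.34 CPM with vehicle, had a log2 fold change of 0.12 (adjusted p = 0.832 in edgeR).

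The elongases Elovl2 and Elovl5 act on polyunsaturated fatty acids. For Elovl2 (ENSMUSG00000021364.16, chromosome 13, 41182381 to 41220405) the vehicle-treated mice had 496, 625, 495, 451, and 463 CPM and the treated mice 338, 282, 337, 359.6, and 345 CPM. The groups did not overlap, and replicate 2 was the highest vehicle-treated and the lowest treated mouse (log2 fold change -0.62, SE 0.10, adjusted p = 0.00408 in edgeR's quasi-likelihood test). Elovl5 (ENSMUSG00000032349.13, chromosome 9, 77917364 to 77984519), the gene with an E box shown above, had 394, 482, 345, 375, and 280.5 CPM and 188, 229.9, 269.7, 249, and 171 CPM. Its groups also did not overlap, although the lowest vehicle-treated mouse lay near the highest treated mouse (log2 fold change -0.77, SE 0.15, adjusted p = 0.0123 in edgeR's quasi-likelihood test). Elovl6, which elongates palmitate and is a shared target of SREBP1 and ChREBP, was not called (log2 fold change -0.53, adjusted p = 0.0571 in edgeR). Of the desaturases of polyunsaturated fatty acids, Fads2 had a log2 fold change of -0.30 with groups that did not overlap (adjusted p = 0.106 in edgeR), and Fads1 had -0.09 (adjusted p = 0.616).

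None of the 7 glycerolipid genes tested was called, and all 7 log2 fold changes were negative, with a median of -0.22. The most negative was that of Lpin1, a phosphatidate phosphatase and coregulator, at -1.06 (SE 0.44, adjusted p = 0.236 in edgeR's quasi-likelihood test), with 63.3, 118, 146, 215, and 293 CPM in vehicle-treated mice and 50.6, 56.2, 44.7, 64.7, and 184 CPM in treated mice. The vehicle-treated mice spread widely and overlapped with the treated mice, of which replicate 5 stood apart above the other 4. Dgat2, which makes triglyceride from diglyceride, had -0.31 (adjusted p = 0.19) and Lpin2 -0.31 (adjusted p = 0.426). Gpam (mitochondrial glycerol-3-phosphate acyltransferase), Lpcat3 (an LXR-dependent lysophospholipid acyltransferase), Agpat2 (the next acyltransferase of the chain), and Dgat1 lay between -0.22 and -0.06.

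Pnpla3 was called among the lipid droplet genes, at a low level. Pnpla3 (ENSMUSG00000041653.5, chromosome 15, 84167837 to 84187236), a lipid droplet protein and target of SREBP1 and ChREBP, had 0.527, 2.37, 0.918, 1.60, and 0.671 CPM with vehicle and 0.43, 0.43, 0.247, 0.205, and 0.215 CPM with CDDO-Me. The groups did not overlap (log2 fold change -2.02, SE 0.43, adjusted p = 0.0198 in edgeR's quasi-likelihood test). Between 12 and 69 counts per library stood behind the vehicle values, and the lower treated values also rested on few counts. Its call was lost without treated replicate 3 or 4 (adjusted p of 0.0507 and 0.052 in edgeR). The lipase gene Pnpla2 had a log2 fold change of 0.04 (adjusted p = 0.905), and Cidec, which enlarges droplets, -0.55 at under 1 CPM (adjusted p = 0.356).

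The 4 genes of sugar uptake and glycolysis had negative log2 fold changes, and none was called. Txnip, a glucose-induced target of ChREBP, had 76.3, 32.5, 143, 126, and 151.3 CPM with vehicle and 37.1, 36.6, 57.6, 61.2, and 54.8 CPM with CDDO-Me. A vehicle-treated mouse, replicate 2, lay below all treated mice, and the other 4 lay above them (log2 fold change -1.10, adjusted p = 0.0876 in edgeR). Pklr, liver pyruvate kinase, the gene with the ChoRE letters shown above, had 201 ± 61.8 and 115 ± 33.6 CPM (log2 fold change -0.81, adjusted p = 0.0934 in edgeR). Slc2a2, the hepatic glucose transporter, had -0.33 (adjusted p = 0.497) and Khk -0.07 (adjusted p = 0.853).

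The number of these genes called differed between alternative analyses. With 1 fit of all 30 libraries, Mlxipl alone of the 7 was called (adjusted p = 0.00929 in edgeR) and the other 6 had adjusted p between 0.17 and 0.562 at nearly the same log2 fold changes. The cause was not tested. No filter on low counts gave 12 calls, all lower, with Fasn, Elovl6, Acacb, Pklr, and Txnip added.

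In the mutant mice no gene of the pathway was called after CDDO-Me. In C151S mice 0 of 32 genes were called and 6 passed an unadjusted p under 0.05, 5 lower and 1 higher, where 0.092% of all genes were called and 13.7% passed an unadjusted p under 0.05. DESeq2 also called 0. The median log2 fold change of the 32 genes was -0.05, with 18 negative. In Nrf2-knockout mice 0 of 32 were called by edgeR and by DESeq2, 2 passed an unadjusted p under 0.05, both lower, and the background was 0% called and 7.85% at the unadjusted p. The median there was -0.14, with 23 of the 32 negative. Medians and signs over all genes are not given beside those of the mutants, so no shift particular to these genes is read from them. The summed hepatocyte markers were 75430 to 112600 CPM with CDDO-Me and 114100 to 126300 CPM with vehicle in Nrf2-knockout mice, without overlap, and 71500 to 153200 CPM and 113400 to 136500 CPM in C151S mice, with overlap, and their part was not tested. Most of each sum was Alb, with means of 77590 and 94350 CPM in Nrf2-knockout and 81900 and 96470 CPM in C151S mice. The sums therefore say little about the other markers. The 3 treatment comparisons use different mice and share no library.

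The mean of Scd1 was lower with CDDO-Me in all 3 genotypes, and the difference passed the test in wild-type mice. C151S mice had 10820, 8897, 14820, 7243, and 11760 CPM with vehicle and 943, 4419, 6667, 6724, and 2562 CPM with CDDO-Me. Again every treated mouse was below every vehicle-treated mouse, and Scd1 was the sole gene of the 32 without overlap there, against 1.29% of all genes tested. The log2 fold change was -1.34 (SE 0.45, unadjusted p = 0.0118, adjusted p = 0.35 in edgeR's quasi-likelihood test). Nrf2-knockout mice had 6519, 7361, 5412, 11200, and 9171 CPM with vehicle and 3654, 1890, 5093, 2429, and 8881 CPM with CDDO-Me. Treated replicate 5 lay among the vehicle-treated mice and the other 4 lay below all of them (log2 fold change -0.86, SE 0.39, adjusted p = 0.627 in edgeR). Neither mutant value passed the test, which does not show that Scd1 was the same with both treatments in these mice.

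Mlxipl and Elovl5 had negative values in the mutants too. The Mlxipl level was 405, 329.7, 286, 332, and 455 CPM in vehicle-treated and 290.3, 252, 252, 250, and 312 CPM in treated Nrf2-knockout mice. The groups overlapped through the 2 highest treated and the lowest vehicle-treated mice (log2 fold change -0.42, SE 0.14, unadjusted p = 0.0103, adjusted p = 0.547 in edgeR). C151S mice had 376, 404, 398, 277, and 258 CPM with vehicle and 204, 343, 279.9, 285, and 294 CPM with CDDO-Me, which overlapped through vehicle replicates 4 and 5 of the low-Arntl set (log2 fold change -0.29, SE 0.17, adjusted p = 0.455 in edgeR). Elovl5 had -1.02 in C151S mice (SE 0.32, adjusted p = 0.347 in edgeR), with 598, 586, 707, 244, and 353 CPM for vehicle and 215, 396, 218, 250, and 152 CPM for CDDO-Me. The 3 vehicle-treated mice of the high-Arntl set were far above the other 2, which overlapped with the treated mice. In Nrf2-knockout mice Elovl5 had -0.11 (SE 0.29, adjusted p = 0.942 in edgeR).

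For the spot 14 genes and for Pnpla3 the mutant values had wide errors. Thrsp had log2 fold changes of 0.57 in C151S mice (SE 0.82) and 0.33 in Nrf2-knockout mice (SE 0.58), and its mice ranged from 31.3 to 957 CPM among treated C151S mice alone. Mid1ip1 had 0.28 (SE 0.27) in C151S and -0.35 (SE 0.28) in Nrf2-knockout mice, and Pnpla3 had -0.07 (SE 0.48) and 0.65 (SE 0.77). None of these 6 values passed the test (adjusted p from 0.643 to 0.956 in edgeR).

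The difference between the responses of 2 genotypes was tested directly, and no gene passed the threshold. Of 33 genes tested, 0 differed between the wild-type and C151S responses and 0 between the wild-type and Nrf2-knockout responses, against 0.48% and 0.266% of all genes. DESeq2 also gave 0 in both, and 5 and 3 genes passed an unadjusted p under 0.05, all with the wild-type response more negative, where 8.31% and 6.28% of all genes passed that p. In the first contrast these were Nr1h3, Mid1ip1, Lpin1, Dgat2, and Pnpla3, and in the second Pnpla3, Cidec, and Txnip. The largest difference was that of Pnpla3 from the Nrf2-knockout response, at -2.66 (SE 0.89, unadjusted p = 0.00568, adjusted p = 0.404 in edgeR's quasi-likelihood test). For Mlxipl the wild-type response was more negative by a log2 difference of -0.38 (SE 0.20, adjusted p = 0.622) than that of C151S mice and by -0.25 (SE 0.20, adjusted p = 0.934) than that of Nrf2-knockout mice in this fit. For Scd1 the differences were 0.23 and -0.25 (SE 0.54 for each, adjusted p of 0.942 and 0.976). The 2 contrasts share the wild-type mice. For comparison, the NRF2 target Nqo1 differed by 3.09 (SE 0.31, adjusted p = 4.65e-07 in edgeR) and 2.78 (SE 0.33, adjusted p = 8.44e-06).

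**Figure D2:**
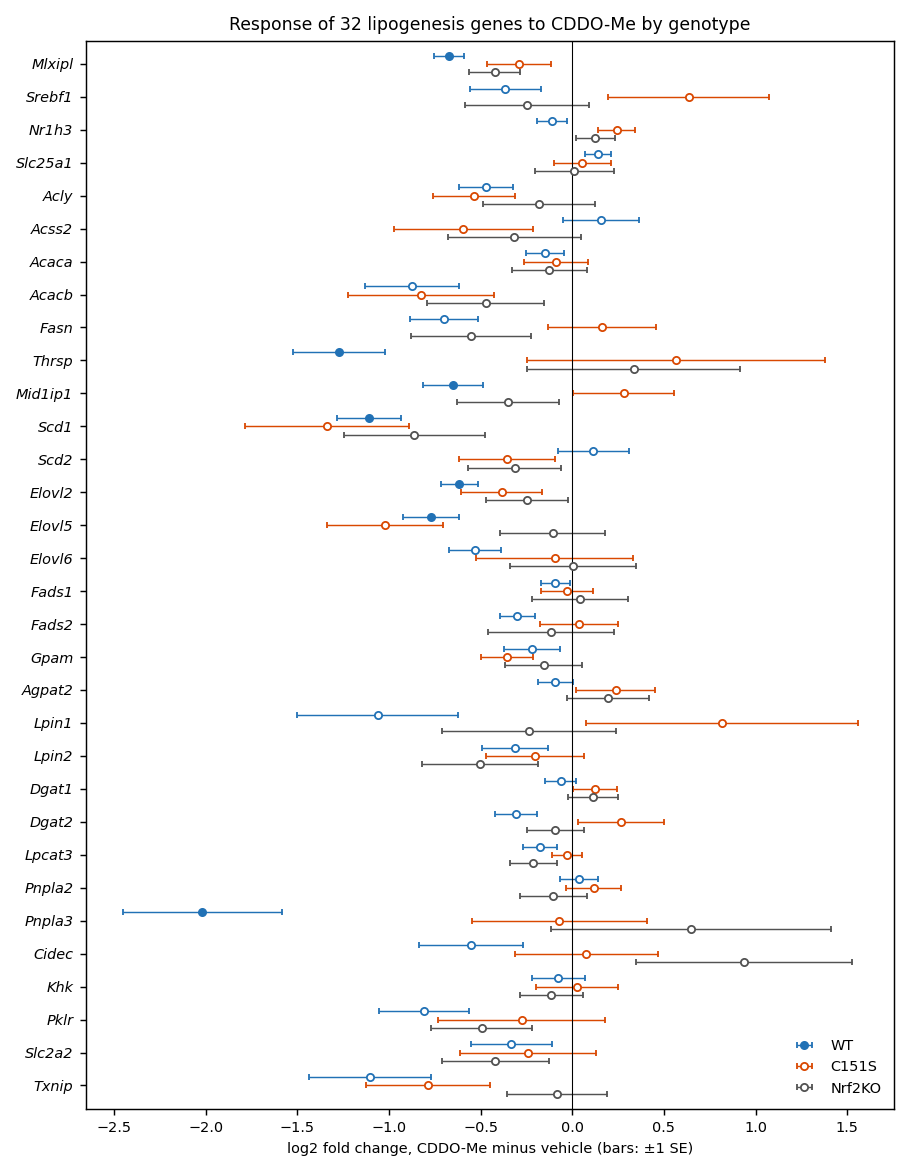
Log2 fold change of CDDO-Me against vehicle in each genotype for the genes tested, grouped by role, with bars of 1 SE and 5 mice per group. Filled points are called (adjusted p under 0.05 and at least 0.5 in size) and open points are not. The 7 filled points are all wild-type and negative, the Scd1 values are negative in all 3 genotypes, and the mutant bars of Thrsp, Lpin1, and Srebf1 are wide.

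Between genotypes, Gpam and Agpat2, which encode acyltransferases, were called lower in 3 and 2 of the 4 comparisons of mutant with wild-type liver, and Elovl2 and Fads2, of polyunsaturated fatty acid synthesis, were called higher in 4 and 3. Nothing is read from these counts about the pathway as a whole. With vehicle, 3 of 32 genes were called between C151S and wild-type mice (4.84% of all genes, 2.59% higher and 2.25% lower): Agpat2 and Gpam lower and Elovl2 higher. Between Nrf2-knockout and wild-type mice with vehicle, 5 of 32 were called (10.4% of all genes, 6.29% higher and 4.13% lower): Agpat2 and Gpam lower and Elovl2, Fads2, and Pnpla2 higher. After CDDO-Me, C151S mice differed from wild-type mice in 4 of 31 (5% of all genes, 2.2% higher and 2.8% lower), with Gpam lower and Lpin1, Elovl2, and Fads2 higher, and Nrf2-knockout mice in 4 of 32 (9.44% of all genes, 4.59% higher and 4.85% lower), with Txnip, Lpin1, Elovl2, and Fads2 higher. Both mutants are set against the same wild-type mice. With vehicle, C151S mice lay wholly below wild-type mice for 3 of the 32 (5.65% of all genes) and Nrf2-knockout mice for 2 (7.19%). Nrf2-knockout mice lay wholly above them for 1 of the 32 with vehicle (5.07%) and 2 with CDDO-Me (4.1%). After CDDO-Me, C151S mice lay wholly below them for 1 of 31 (5%). A lack of overlap given below for single genes is to be read beside these shares. Between the 2 mutants 0 genes were called in edgeR and DESeq2 with vehicle (0.349% of all genes, 2 of the 32 at an unadjusted p under 0.05) or with CDDO-Me (0.162%, 0 of the 32).

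Gpam (ENSMUSG00000024978.11, chromosome 19, 55067268 to 55127238), which starts glycerolipid synthesis, had 349, 331, 433, 551, and 370.0 CPM in wild-type mice, 284, 208, 296, 228, and 248 CPM in C151S mice, and 266, 307, 240.3, 226, and 196 CPM in Nrf2-knockout mice, all with vehicle. Every mutant mouse was below every wild-type mouse. The log2 differences were -0.67 for C151S (SE 0.15, adjusted p = 0.0182 in edgeR's quasi-likelihood test) and -0.70 for Nrf2-knockout mice (SE 0.15, adjusted p = 0.0118). After CDDO-Me Gpam stood at 403, 435, 333, 302, and 282 CPM in wild-type, 198, 232, 203, 213, and 147 CPM in C151S, and 224, 140.5, 316, 168, and 265 CPM in Nrf2-knockout mice. The C151S mice were again all below the wild-type mice (log2 difference -0.80, SE 0.16, adjusted p = 0.0123 in edgeR), and the Nrf2-knockout mice overlapped with them (-0.63, SE 0.22, adjusted p = 0.0762). The vehicle call for C151S was lost without C151S replicate 2 (adjusted p = 0.0543 in edgeR). With the high-Arntl libraries alone both vehicle calls held, and the call after CDDO-Me was lost at a log2 difference of -0.69 (adjusted p = 0.119 in edgeR).

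Agpat2 (ENSMUSG00000026922.13, chromosome 2, 26593057 to 26604417), the acyltransferase that makes phosphatidate, had 176, 227, 187, 205, and 206 CPM in wild-type, 135, 115, 144, 98.0, and 121 CPM in C151S, and 137, 107, 88.3, 100.2, and 158 CPM in Nrf2-knockout mice with vehicle. Both mutant groups lay wholly below the wild-type group, by log2 differences of -0.69 (SE 0.11, adjusted p = 0.00529 in edgeR) and -0.75 (SE 0.14, adjusted p = 0.00699). These calls held without each of the 10 mice in turn, but not in all alternatives. That of C151S mice was lost with the Arntl set as a covariate, at -0.55 (adjusted p = 0.0619 in edgeR), and that of Nrf2-knockout mice with the high-Arntl libraries alone, at -0.61 (adjusted p = 0.0592). With CDDO-Me the levels were 189 ± 23.5, 145 ± 54.1, and 136 ± 46.2 CPM, and Agpat2 was not called in either mutant, each of which held a mouse above the wild-type mean.

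Elovl2 was higher in both mutants with both treatments. With vehicle the C151S mice had 754, 791, 775, 540.4, and 752 CPM and the Nrf2-knockout mice 583, 961, 672, 778, and 636 CPM, against the wild-type values given above. All but 1 C151S mouse and 1 Nrf2-knockout mouse were above the highest wild-type mouse. The log2 differences were 0.53 (SE 0.13, adjusted p = 0.0297 in edgeR) and 0.54 (SE 0.15, adjusted p = 0.0284). With CDDO-Me the values were 316, 741, 469.5, 712, and 539.9 CPM in C151S and 592, 335, 794, 698, and 659.5 CPM in Nrf2-knockout mice. In each mutant 4 of 5 mice were above all wild-type mice and the fifth lay among them, with log2 differences of 0.76 (SE 0.20, adjusted p = 0.0452 in edgeR) and 0.91 (SE 0.19, adjusted p = 0.0105). With the high-Arntl libraries alone the call for C151S with vehicle held and the other 3 were lost, at log2 differences of 0.52 (Nrf2-knockout, vehicle), 0.69 (C151S, CDDO-Me), and 0.62 (Nrf2-knockout, CDDO-Me). The call for C151S with vehicle was lost with 1 fit of all 30 libraries (0.51, adjusted p = 0.136 in edgeR) and with the Arntl set as a covariate (0.48, adjusted p = 0.132), and that for Nrf2-knockout with vehicle was lost in both as well (0.52, adjusted p = 0.0707, and 0.46, adjusted p = 0.111). The replicate number as a block also ended the call for C151S with CDDO-Me. The call for Nrf2-knockout with CDDO-Me held without each mouse. The other 3 did not: leaving out 1 mouse ended the call in 7 of 10 cases for C151S with vehicle (C151S replicates 1 to 3 and wild-type replicates 1, 3, 4, and 5, adjusted p up to 0.083), in 5 of 10 for Nrf2-knockout with vehicle (knockout replicate 2 and wild-type replicates 1, 3, 4, and 5, up to 0.0724), and in 9 of 10 for C151S with CDDO-Me (all but C151S replicate 1, up to 0.124).

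Fads2, the Δ6 desaturase, had 519, 664, 504, 514, and 480.2 CPM in vehicle-treated wild-type and 741, 1892, 1138, 697, and 759 CPM in vehicle-treated Nrf2-knockout mice. The knockout mice were all above the wild-type mice and were led by replicate 2 (log2 difference 0.98, SE 0.26, adjusted p = 0.0244 in edgeR). Vehicle-treated C151S mice had 566, 696, 614, 838, and 902 CPM (0.44, SE 0.14, adjusted p = 0.0685 in edgeR). After CDDO-Me the values were 477, 441, 449.7, 391, and 431 CPM in wild-type, 449, 565, 903, 888, and 917 CPM in C151S, and 995, 483, 1289, 1389, and 689 CPM in Nrf2-knockout mice. All knockout mice and all but 1 C151S mouse were above the wild-type mice, with log2 differences of 1.17 (SE 0.25, adjusted p = 0.0099 in edgeR) and 0.78 (SE 0.19, adjusted p = 0.0315). The levels also moved with Arntl. In C151S mice they were 449 to 696 CPM in the high-Arntl and 838 to 917 CPM in the low-Arntl libraries, without overlap. In Nrf2-knockout mice they were 483 to 759 CPM and 741 to 1892 CPM, with overlap. With the high-Arntl libraries alone the 3 calls were lost, at log2 differences of 0.47 (Nrf2-knockout, vehicle), 0.45 (Nrf2-knockout, CDDO-Me), and 0.22 (C151S, CDDO-Me). With the Arntl set as a covariate those of Nrf2-knockout with vehicle (0.44, adjusted p = 0.0715 in edgeR) and of C151S with CDDO-Me (0.24, adjusted p = 0.43) were lost as well. The latter was also lost with 1 fit of all 30 libraries (0.77, adjusted p = 0.0598 in edgeR) and with the replicate number as a block. Leaving out 1 mouse ended the call of Nrf2-knockout with vehicle in 5 cases (knockout replicate 3 and wild-type replicates 1, 3, 4, and 5, adjusted p up to 0.0617 in edgeR), and that of C151S with CDDO-Me in 7 (C151S replicates 3 to 5 and wild-type replicates 1 to 4, up to 0.0864).

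Lpin1 was called higher in both mutants after CDDO-Me, with a wide spread between mice. Treated C151S mice had 100.3, 267, 782, 746, and 449.6 CPM and treated Nrf2-knockout mice 119, 199, 237, 329.6, and 314 CPM, against 44.7 to 184 CPM in treated wild-type mice. The 3 low-Arntl C151S mice were far above the other 2, and 1 mouse of each mutant lay within the wild-type range. The log2 differences were 2.56 (SE 0.56, adjusted p = 0.0208 in edgeR) and 1.60 (SE 0.40, adjusted p = 0.0226). With the high-Arntl libraries alone they were 1.22 (adjusted p = 0.313 in edgeR) and 1.71 (adjusted p = 0.0666), and with the Arntl set as a covariate 1.46 (adjusted p = 0.112) and 0.94 (adjusted p = 0.23). The call of Nrf2-knockout mice was lost with 1 fit of all 30 libraries too (1.58, adjusted p = 0.0982 in edgeR). Both calls were also lost without wild-type replicate 1, 2, 3, or 4, and that of C151S without C151S replicate 4 (adjusted p between 0.0506 and 0.0632 in edgeR). With vehicle, C151S mice had 54.9, 85.8, 72.7, 651, and 470.2 CPM and Nrf2-knockout mice 487, 289, 295, 294, and 42.2 CPM, and Lpin1 was not called in either.

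The 2 remaining calls concerned 1 mutant each. Pnpla2, adipose triglyceride lipase, was higher in vehicle-treated Nrf2-knockout mice (85.6 ± 22.7 CPM) than in wild-type mice (57.6 ± 4.57 CPM), by a log2 difference of 0.59 (SE 0.15, adjusted p = 0.0244 in edgeR). The call was lost without knockout replicate 1, 2, or 3 or wild-type replicate 1 or 3, and with the high-Arntl libraries alone the difference was 0.15. In all, the call was lost in 3 of the 7 alternative analyses, that of the high-Arntl libraries among them. Txnip was higher in CDDO-Me-treated Nrf2-knockout mice, with 75.3, 153, 149, 111, and 64.6 CPM, than in treated wild-type mice. All knockout mice were above all wild-type mice (log2 difference 1.18, SE 0.25, adjusted p = 0.00939 in edgeR), and the call held without each mouse and with the high-Arntl libraries alone.

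**Figure D3:**
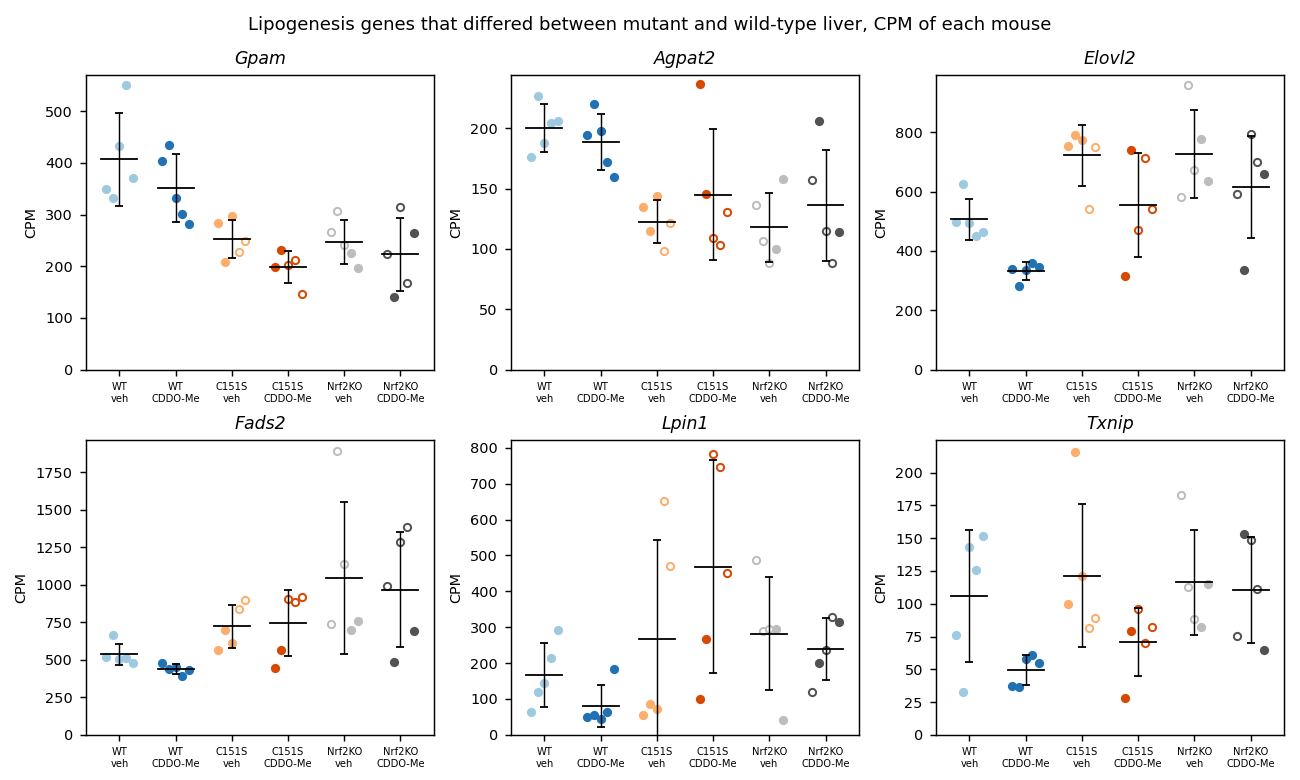
Levels (CPM, linear axes from 0) of 6 genes called between mutant and wild-type liver, by genotype and treatment. Each point is 1 mouse (5 per group), open points are libraries of the low-Arntl set, the black bar is the mean, and the error bar is 1 SD, which for Lpin1 in vehicle-treated C151S mice reaches below 0 and is cut off there. Every vehicle-treated mutant mouse is below every vehicle-treated wild-type mouse for Gpam and Agpat2, and the open points of Fads2 and Lpin1 in C151S mice are above the filled ones.

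Inside the mutant groups, the levels of several genes differed by the Arntl set of the library. The genes named are examples, and the share of all genes without overlap between the sets was not computed. Thrsp was 31.3 to 154 CPM in the 5 high-Arntl and 539 to 957 CPM in the 5 low-Arntl C151S libraries. In Nrf2-knockout mice it was 65.0 to 224 CPM in 4 and 345 to 744 CPM in 6 libraries, again without overlap. Srebf1 was 124 to 180.0 CPM and 225 to 560 CPM in the C151S sets, which did not overlap, and 115 to 251 and 203 to 382 CPM in the Nrf2-knockout sets, which did. Dgat2 ranged from 278 to 363 CPM against 494 to 618 CPM in C151S mice, without overlap. In Nrf2-knockout mice it ranged from 352 to 472.5 against 441 to 572 CPM, with overlap. Lpin1 ranged from 54.9 to 267 CPM against 450 to 782 CPM in C151S mice, and in Nrf2-knockout mice from 42.2 to 314 against 119 to 487 CPM. Elovl5 went the other way, with a median of 586 CPM in high-Arntl and 244 CPM in low-Arntl C151S libraries, and ranges that overlapped. For Mlxipl the sets overlapped, with 204 to 404 and 258 to 294 CPM in C151S mice and 252 to 455 and 250 to 405 CPM in Nrf2-knockout mice.

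Within each Arntl set the change with CDDO-Me was computed without a test, since 2 or 3 mice remained per group. The median over 32 genes of the difference in mean log2 CPM was -0.40 in high-Arntl C151S mice (25 of 32 negative) and -0.04 in low-Arntl C151S mice (17 of 32). In Nrf2-knockout mice it was -0.38 (23 of 32) and -0.07 (19 of 32). The same values were not computed over all genes, so no shift particular to these genes can be read from them. Scd1 was lower with CDDO-Me in all 4 of these sets, by -2.46 and -0.93 log2 CPM in C151S and -1.31 and -0.84 log2 CPM in Nrf2-knockout mice. Mlxipl had -0.57 and 0.10 in C151S and -0.47 and -0.35 in Nrf2-knockout mice. For Thrsp the values were -1.13 and 0.26, and -0.11 and 0.39. The part of the Arntl difference in the comparisons with wild-type mice, all of which are in the high set, was not tested beyond the values given here.

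**Figure D4:**
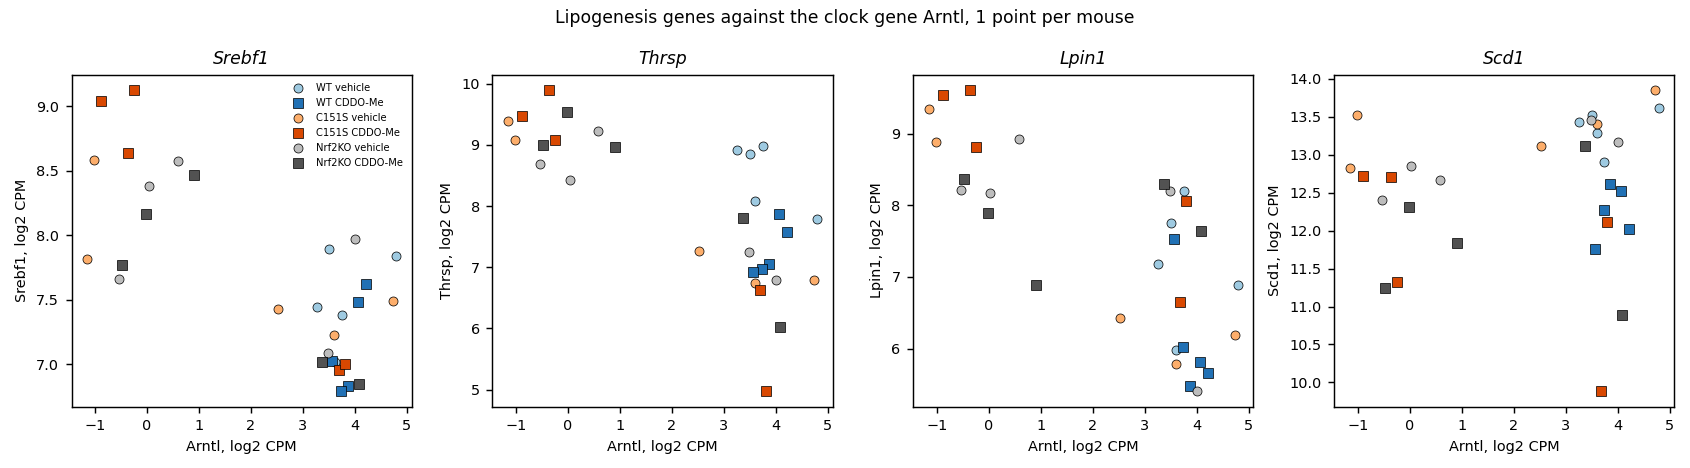
Levels of Srebf1, Thrsp, Lpin1, and Scd1 against Arntl in the same library, both as log2 CPM, with 1 point per mouse, circles for vehicle, squares for CDDO-Me, and color for genotype and treatment. Thrsp is higher in all low-Arntl libraries than in the high-Arntl libraries of the same mutant genotype, and the wild-type libraries are all on the high side.

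Other genes of the pathway, 35 in a list that included Mlx, Insig1, Me1, the perilipins, and the LXR targets Abca1, Abcg5, and Abcg8, were counted in the same way. In wild-type mice CDDO-Me lowered 2 of the 35 and raised 0 (1.1% and 1.66% of all genes), with a median log2 fold change of -0.07. Insig2, which retains SREBP precursors in the endoplasmic reticulum, had 249, 193, 215, 191, and 193 CPM with vehicle and 122, 126, 159.7, 148, and 138 CPM with CDDO-Me. All treated mice were below all vehicle-treated mice (log2 fold change -0.59, SE 0.097, adjusted p = 0.00421 in edgeR's quasi-likelihood test). Elovl3, an elongase of saturated fatty acids, had a log2 fold change of -1.99 in wild-type mice (SE 0.33, adjusted p = 0.00415 in edgeR), and its log2 fold changes were -1.67 in C151S (adjusted p = 0.4) and -2.00 in Nrf2-knockout mice (adjusted p = 0.602). In the mutants 0 of the 35 were called after CDDO-Me, and 0 differed between responses. Against wild-type mice with vehicle, C151S mice had 1 higher and 5 lower of the 35 (2.59% and 2.25% of all genes) and Nrf2-knockout mice 1 higher and 4 lower (6.29% and 4.13%). With CDDO-Me the counts were 3 higher and 2 lower in C151S mice (2.2% and 2.8% of all genes) and 0 higher and 4 lower in Nrf2-knockout mice (4.59% and 4.85%).

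Lists of other processes were counted beside these results, and nothing is read from single calls in them. Of all genes tested, 1.66% were called higher and 1.1% lower with CDDO-Me in wild-type mice. Against wild-type mice with vehicle the shares were 2.59% and 2.25% for C151S and 6.29% and 4.13% for Nrf2-knockout mice. With CDDO-Me they were 2.2% and 2.8% for C151S and 4.59% and 4.85% for Nrf2-knockout mice. In wild-type mice CDDO-Me raised 1 of 11 fasting genes and lowered 0, and changed 0 of 15 clock genes. Against wild-type mice, vehicle-treated Nrf2-knockout mice had 3 clock genes higher and 2 lower, and C151S mice 1 higher. After CDDO-Me, C151S mice had 2 clock genes higher, and Nrf2-knockout mice 2 higher and 1 lower. Of the fasting genes, 1 was higher in each mutant with each treatment, and 1 was lower in vehicle-treated Nrf2-knockout and in CDDO-Me-treated C151S mice. The part of the clock and fasting genes in the differences above was not tested. Adipocyte markers summed to at most 0.530 CPM in any library, with at least 4 of the 5 at 3 counts or fewer in all libraries of a group. Of the markers of other liver cells, 1 of 6 lymphocyte and neutrophil genes was higher and 1 pancreas gene lower in treated wild-type mice. In vehicle-treated Nrf2-knockout mice 3 of 6 endothelial, 3 of 6 stellate and fibroblast, and 2 of 6 lymphocyte and neutrophil markers were higher than in wild-type mice, and after CDDO-Me 1 endothelial marker was. Against wild-type mice 1 of 7 Kupffer cell and macrophage markers was lower in both mutants after CDDO-Me, and 1 of 5 cholangiocyte markers was lower in vehicle-treated C151S mice. The part of these markers in the differences above was not tested.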

How the data were processed

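Liver mRNA of 30 mice, 5 in each of 6 groups of genotype and treatment, had been sequenced as paired-end reads of 50 bases. The authors aligned the reads to mm10 with STAR 2.7.7 and deposited raw counts per gene of GENCODE M23, keeping counts of the strand that matches the stranded library. The deposited values are whole, unnormalized counts, from which STAR's 4 summary lines were dropped. Symbols and positions come from GENCODE M21 (GRCm38, the assembly of mm10) and were found for 55154 of 55335 genes. STAR counts uniquely placed reads, so that genes with near-identical copies are counted in part. Counting error and the spread between mice both enter the SD, and 3 counts in a library were set as the floor of detection, which covers counting error only because the reads carry no molecular identifiers.

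A comparison was fitted on its own 2 groups, as the labels give them. Genes were filtered with filterByExpr, normalized by TMM, and tested over all genes with the quasi-likelihood F-test (legacy fit) of edgeR 4.0.16 in R 4.3.3, with Benjamini-Hochberg adjustment over all genes tested. Differences between responses were contrasts in a fit of all 30 libraries, called at an adjusted p under 0.05 without a threshold on size. The SE of a log2 fold change is its size divided by the square root of F. CPM were computed from the counts with the TMM factors of all 30 libraries, and log2 CPM with a prior count of 2. The date of sample isolation, a covariate in the study, is not given in the sources used here. The fits were tested on simulated data.

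The values of every mouse are given for genes called between treatments in wild-type mice or in at least 2 genotype comparisons, and for Txnip, which was added after its values were seen. Lists of other pathway genes, fasting genes, clock genes, and cell type markers were counted, and of 8 hepatocyte markers 7 were matched. The genes and lists were chosen with earlier results of these data known. Alternatives were DESeq2 1.42.0, no filter on low counts, no threshold on the fold change, the replicate number as a block, 1 fit of all 30 libraries, the Arntl set as a covariate, the high-Arntl libraries alone, and each mouse left out in turn. The Arntl sets part at the largest gap between sorted Arntl levels and are not named in the labels. In C151S mice they follow the replicate numbers: vehicle replicates 1 to 3 and CDDO-Me replicates 1 and 2 are high and the others low. Whether the sets match dates of sample isolation cannot be told, since the dates are not given.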

Additional observations from a re-analysis of the deposited data

Results flagged for a closer look

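For each gene and group the highest or lowest of the 5 mice was compared with the other 4 by Dixon's criterion. Of 197 combinations examined, 15 stood apart, and chance alone flags about 5%.

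In wild-type mice with vehicle, Mlxipl was 489 CPM in replicate 5 and 411 to 425 CPM in the others. Replicate 2 of the same group had 625 CPM of Elovl2 (others 451 to 496 CPM), 664 CPM of Fads2 (others 480.2 to 519 CPM), and 116 CPM of Slc2a2 (others 274 to 326 CPM). With CDDO-Me, wild-type replicate 2 had 282 CPM of Elovl2 (others 337 to 359.6 CPM) and 89.3 CPM of Elovl6 (others 50.9 to 58.8 CPM), and replicate 5 had 184 CPM of Lpin1 (others 44.7 to 64.7 CPM).

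Among vehicle-treated C151S mice, replicate 4 had 540.4 CPM of Elovl2 (others 752 to 791 CPM) and 439 CPM of Pklr (others 116 to 184 CPM), and replicate 5 had 95.0 CPM of Nr1h3 (others 75.5 to 79.3 CPM). Both are libraries of the low-Arntl set.

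In Nrf2-knockout mice with CDDO-Me, replicate 2 was low in 3 genes: it had 58.6 CPM of Acss2 (others 267 to 319 CPM), 17.8 CPM of Mid1ip1 (others 48.3 to 60.8 CPM), and 245 CPM of Lpin2 (others 311 to 329 CPM). Replicate 5 had 9.59 CPM of Scd2 (others 4.14 to 5.08 CPM). Mogat1 was 0.345 CPM in replicate 1 and 0.120 to 0.174 CPM in the others, all at a few counts.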

How the results depend on the processing

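No gene called in a comparison changed direction there under any alternative. Direction was followed for called genes only, and some genes not called had the opposite sign within an Arntl set, such as Thrsp in C151S mice. The 7 calls of the wild-type treatment became 12 with no filter on low counts, 1 with 1 fit of all 30 libraries, and 1 with the Arntl set as a covariate (Mlxipl in both), and 5 to 10 when a mouse was left out. For C151S against wild-type mice with vehicle, the 3 calls became 5 with DESeq2 and 7 with the high-Arntl libraries alone, and 1 to 4 when a mouse was left out (1 without C151S replicate 2). For Nrf2-knockout against wild-type mice with vehicle, the 5 calls became 2 with the high-Arntl libraries alone and 2 to 5 when a mouse was left out (2 without wild-type replicate 1 or 3, and 3 without wild-type replicate 4 or 5 or knockout replicate 2 or 3). After CDDO-Me, the 4 calls for C151S became 2 with the replicate block, 1 with the high-Arntl libraries alone, 2 with the Arntl covariate, and 1 to 8 when a mouse was left out (8 without C151S replicate 1, 2 without replicate 5, and 1 without replicate 4 or wild-type replicate 1, 2, 3, or 4). The 4 for Nrf2-knockout mice became 2 with the high-Arntl libraries alone, 7 with the covariate, and 3 to 10 (10 without knockout replicate 2 and 7 without replicate 5). The 6 counts of 0 stayed at 0 throughout. The cause of these shifts was not tested.

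Same-numbered mice were not treated as pairs: over 2000 genes, their deviations from the group means had mean correlations between -0.214 and 0.245, and in no comparison did all 5 pairs exceed 0.1. With the replicate block the wild-type treatment gave 6 calls, 5 of them shared with the 7, with Thrsp and Mid1ip1 lost and Lpin1 added. The low-Arntl set holds no wild-type mouse, so the Arntl covariate is estimated from mutant mice. At 12 to 69 counts per library in vehicle-treated wild-type mice, Pnpla3 is the called gene with the least depth.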
